A study of Mus musculus with 8 samples.

Results

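The comparison described here sets the highest of 3 prenatal nicotine doses, 4.5 mg/kg/day, against the next lower dose, 3.0 mg/kg/day, in the palate of newborn BALB/c mice. It uses 4 of the 8 arrays of the series, 2 for each dose, and leaves out the 2 saline arrays and the 2 arrays at 1.5 mg/kg/day except where their levels are named. Pregnant dams carried an osmotic minipump under the skin, a device that releases its contents at a steady rate, and gave birth naturally. Total RNA came from the rear part of the palate of pups on postnatal day 1. Both groups therefore received nicotine before birth and differed in the labels by its dose alone. The labels call the arrays biological replicates and give 2 pups for the extraction. The sources used here do not say whether an array held 1 pup or several, how many litters were used, or when in pregnancy the pump was placed. P-values therefore cover only the spread between these arrays, which at 4.5 may be technical. The arrays of 3.0 differed in sex, as given below, and so held different pups. The genes named are those whose arrays did not overlap between the doses, by the widest gap over all genes and within gene lists. To these were added 14 genes of palate formation and nicotinic signalling, given whatever their values.

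The palate forms from a pair of shelves that grow out of the upper jaw, lift above the tongue and fuse. Its rear part carries muscle, mucous glands and connective tissue and becomes the soft palate. Nicotine acts on acetylcholine-gated ion channels, which in muscle are the receptors of the nerve-muscle junction and elsewhere sit on neurons, epithelia and immune cells. A second system recurs in the results below. Glucocorticoids, the steroid hormones of fasting and stress, enter cells and bind a receptor that acts as a transcription factor. Its textbook targets include Fkbp5, Per1, Zbtb16, Tsc22d3, Klf9, Klf15 and the metallothioneins, and in skeletal muscle the ubiquitin ligases Trim63 and Fbxo32. Cholesterol synthesis is controlled by another route, in which sterols hold the SREBP transcription factors inactive and their loss switches on nearly the whole pathway.

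The median intensity of the 4 arrays lay between 20.7 and 21.4, and their medians on the log2 scale differed by 0.03. Over 34945 probe sets the arrays of nicotine 3.0 correlated at r = 0.987 and those of 4.5 at r = 0.969. Replicate 1 of 4.5 was closer to replicate 2 of 3.0, at r = 0.980, than to its own replicate. The 4.5 group thus varied more within itself than the 3.0 group. The ratio of 3′ to 5′ signal, a sign of RNA quality, lay between 0.954 and 1.15 for actin and between 0.912 and 1.06 for Gapdh. The Y-linked Eif2s3y read 236 in replicate 1 of nicotine 3.0 and between 3.45 and 4.83 in the other 3 arrays, while Xist, which coats the silenced X of female cells, read 6.44 there and between 703 and 1144 elsewhere. The 3.0 group thus held an array of each sex and the 4.5 group female arrays only. List medians without the male array are given below for lung and brown fat. Most single genes are given only with it, and those whose 3.0 arrays lie far apart may lean on it. Of 39 genes of palate patterning and fusion, between 20 and 24 per array lay above the 60th percentile of all probe sets. Meox2, a homeobox gene of the rear palate, read 450 and 420 at 3.0 and 351 and 385 at 4.5. Tbx22, a T-box gene required for the hard palate, lay near background in all 4 arrays, between 4.31 and 5.34. Genes of lung, brown fat and thymus were also read, and their levels are given below.

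No probe set passed an adjusted p under 0.05 in limma in either direction, 0.0% of 34945 higher and 0.0% lower at 4.5. At an unadjusted p under 0.05 there were 903 higher (2.58%) and 1564 lower (4.48%). The smallest adjusted p in limma was 0.157, for G0s2. With 2 arrays against 2, an exact permutation test of 1 gene cannot give a two-sided p under 0.333, so the values below are descriptions of these 4 arrays. Both 4.5 arrays lay above both 3.0 arrays for 2750 of 18193 genes (15.1%) and below them for 4077 (22.4%). With a difference of at least 1 unit of log2(intensity + 16) besides, 119 probe sets (0.341%) were higher and 185 (0.529%) lower at 4.5. By gene, 78 (0.429%) were higher and 129 (0.709%) lower at 4.5. Without replicate 1 of 4.5 those probe set counts were 334 and 456, and 16 higher and 24 lower passed the adjusted test in limma. Without replicate 2 of 3.0, 288 were lower. The median difference over all genes was -0.04. Among the 78, 15 belonged to the list of glucocorticoid response and muscle wasting genes and 7 to the list of thymocytes and T cells. Among the 129, 12 belonged to the lung list, 5 to cholesterol synthesis, 4 to adipocytes and 3 to brown fat. In bulk tissue, fewer cells of a type and less RNA per cell cannot be told apart, which applies to every list named here.

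**Figure D1:**
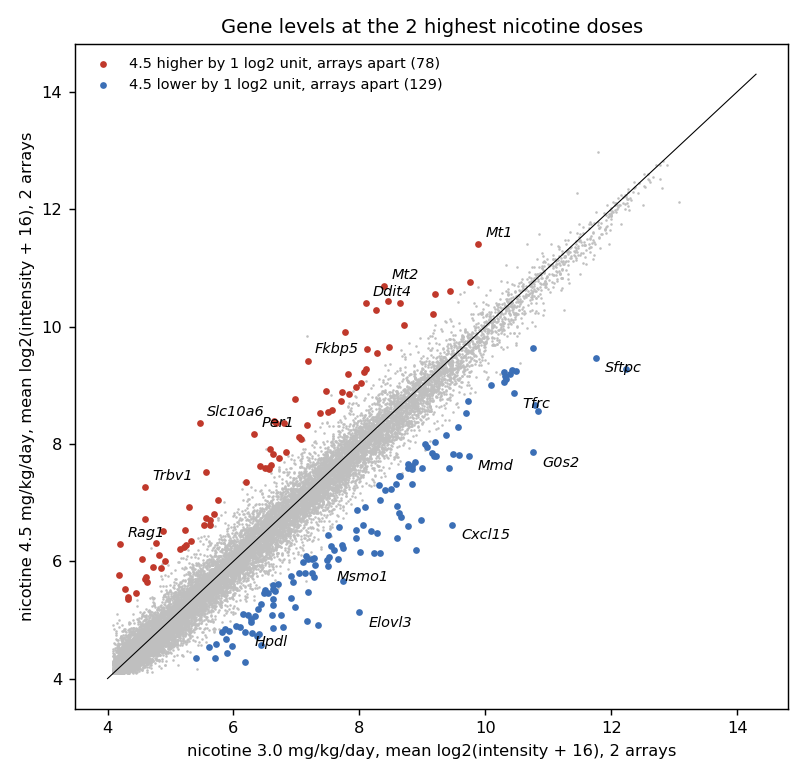
Mean log2(intensity + 16) of 18193 genes at nicotine 3.0 (x axis) and 4.5 mg/kg/day (y axis), 2 arrays each, with the line of equal level. Red points are the 78 genes and blue points the 129 genes whose arrays did not overlap and whose means differed by at least 1 log2 unit. Named genes include Slc10a6, Mt2 and Ddit4 above the line and G0s2, Elovl3 and Cxcl15 below it.

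The widest gap upward belonged to Slc10a6, a transporter of sulfated steroids. Its intensity was 29.6 and 27.1 at nicotine 3.0 and 202 and 472 at 4.5. On the shifted log2 scale that is a difference of 2.88 ± 0.37 (SE, n = 2 against 2; limma, adjusted p = 0.316). Of the 15 genes with the widest gap upward, 8 are on the glucocorticoid list described next and 3 on the thymocyte list. Outside the lists stood Pik3ip1, an inhibitor of PI3-kinase, with 123 and 97.4 at 3.0 and 417 and 418 at 4.5. The 2 high arrays were nearly equal there and the low ones close together. Depp1, a FOXO target that acts on autophagy, read 400 and 371 at 3.0 and 1131 and 1565 at 4.5. Tmem140, a membrane protein, read 91.7 and 98.5 against 301 and 322. Adjusted p-values in limma for the 30 genes with the widest gaps lay between 0.157 and 0.632.

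Downward, the widest gap was that of G0s2, an inhibitor of the triglyceride lipase of fat droplets, which is itself made in fed adipose tissue. It read 1769 and 1668 at nicotine 3.0 and 192 and 242 at 4.5, a difference of -2.90 ± 0.20 (SE, n = 2 against 2; limma, adjusted p = 0.157). Each dose formed a tight pair, about a factor of 7.48 apart on the shifted scale. Tfrc, the transferrin receptor that brings iron into cells, read 1379 and 1384 at 3.0 and 411 and 493 at 4.5. Rbp7, a retinol-binding protein of fat endothelium and adipocytes, read 674 and 837 against 215 and 204. Its arrays and those of Tfrc were likewise close within a dose. Elovl3, a fatty acid elongase of brown fat, read 168 and 338 at 3.0 and 15.03 and 23.4 at 4.5. Mmd read 740 and 954 against 262 and 161. Several of the other genes were metabolic: Abcd2, a peroxisomal transporter of very long fatty acids, Slc7a10, an amino acid transporter of white adipocytes, and Msmo1 of cholesterol synthesis. Spry4, a feedback inhibitor of FGF signalling, read 133 and 117 at 3.0 and 42.7 and 37.1 at 4.5. Cxcl15, Sftpc and Scgb1a1 are lung genes and are described with that list.

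**Figure D2:**
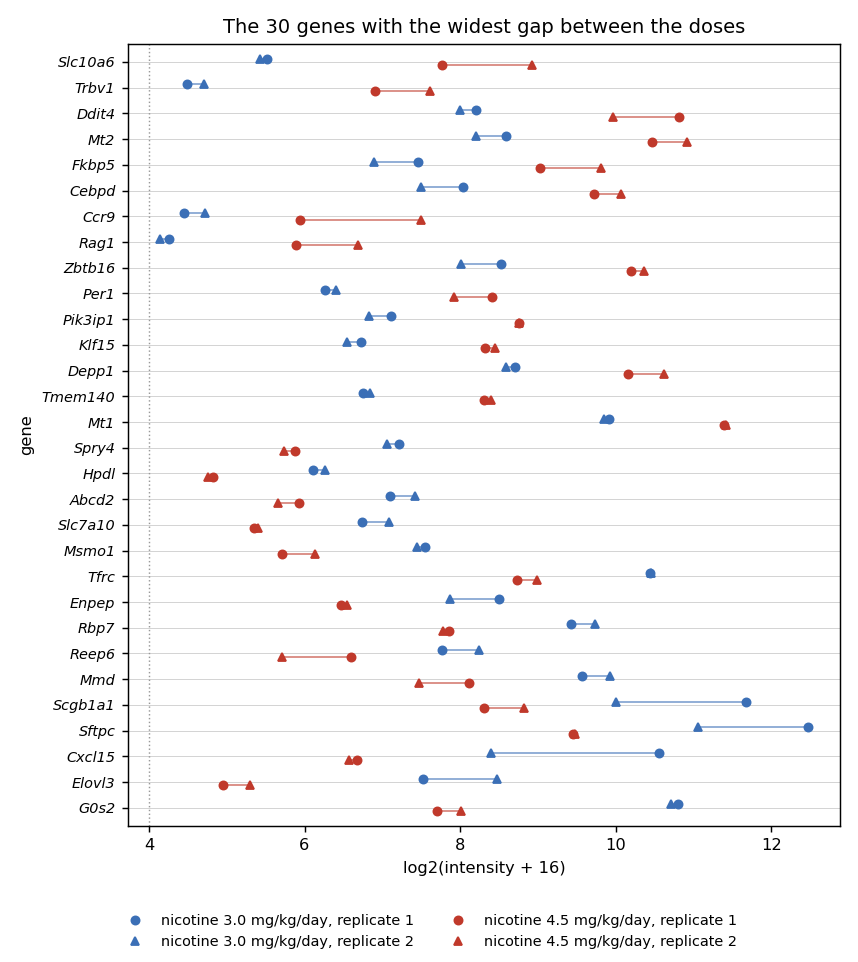
Log2(intensity + 16) in each of the 4 arrays for the 15 genes per direction with the widest gap between the doses, blue for nicotine 3.0 and red for 4.5 mg/kg/day, circles for replicate 1 and triangles for replicate 2. A line joins the arrays of a dose, and the dotted line is the value of an intensity of 0. Slc10a6 stands at the top with a difference of 2.88 and G0s2 at the bottom with -2.90.

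Genes of the glucocorticoid response and of muscle wasting were higher at 4.5 as a list. Of 28 measured, 24 lay higher in both 4.5 arrays, beside 15.1% of all genes, and 15 of these by at least 1 log2 unit, beside 0.429% of all genes. The median difference was 1.09 against -0.04 over all genes. None passed the adjusted test in limma, and 21 were higher at an unadjusted p under 0.05, beside 2.73% of all genes. The list was written with earlier results of these data known, so its direction is a description.

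Among the receptor's transcriptional targets, Fkbp5 encodes a co-chaperone that lowers the receptor's own affinity for hormone. Its intensity was 161 and 103 at nicotine 3.0 and 504 and 886 at 4.5, a difference of 2.24 ± 0.32 (SE, n = 2 against 2; limma, adjusted p = 0.335). Zbtb16, a zinc finger repressor, read 352 and 243 at 3.0 and 1162 and 1299 at 4.5. On the log2 scale, every 4.5 array of both genes exceeded every 3.0 array by more than the arrays of a dose differed. Tsc22d3, the leucine zipper protein GILZ, read 213 and 205 against 401 and 796, so that its 4.5 arrays lay further apart. Cebpd, a transcription factor of the acute phase and of early fat cell formation, read 246 and 165 at 3.0 and 830 and 1062 at 4.5. Klf9 read 540 and 602 against 2038 and 1080, with replicate 1 of 4.5 the higher. Klf15, which drives amino acid breakdown in fasting muscle, read 90.2 and 77.4 against 305 and 333, a difference of 1.75 ± 0.18 (SE, n = 2 against 2; limma, adjusted p = 0.292). Both doses formed close pairs there. Nfkbia, the inhibitor of NF-kappaB, read 707 and 656 against 1558 and 1513.

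The metallothioneins Mt1 and Mt2 bind zinc and copper and are targets of both metals and glucocorticoids. Mt2 read 371 and 278 at nicotine 3.0 and 1394 and 1916 at 4.5, a difference of 2.29 ± 0.25 (SE, n = 2 against 2; limma, adjusted p = 0.292). Mt1 was the more intense reading in every array, with 949 and 909 against 2665 and 2720, although levels of different probe sets are not compared as amounts. Ddit4, an inhibitor of the growth kinase mTORC1, read 279 and 239 at 3.0 and 1788 and 987 at 4.5. All 3 were high in both 4.5 arrays, with Ddit4 higher in replicate 1 and Mt2 in replicate 2.

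The wasting genes proper were higher with a wider spread. Trim63 (MuRF1), the ligase that marks myosin for breakdown, read 377 and 297 at nicotine 3.0 and 864 and 2169 at 4.5. Fbxo32 (atrogin-1) read 100.2 and 74.1 against 172 and 560, a difference of 1.68 ± 0.50 (SE, n = 2 against 2; limma, adjusted p = 0.659). In both ligases replicate 2 of 4.5 was well above replicate 1. Foxo3, the transcription factor that drives them, read 271 and 195 against 409 and 574. Cdkn1a, the cell cycle inhibitor p21, read 782 and 742 against 1439 and 1548, and Pdk4, which shuts pyruvate out of the mitochondrion, 1853 and 1809 against 2891 and 3172. Sgk1 differed by 0.28 ± 0.20 with arrays just apart. Fbxo30, Tat and Fbxo21 overlapped between the doses, Tat near background. Angptl4, which blocks lipoprotein lipase, was lower in both 4.5 arrays, at 1026 and 819 against 1103 and 1233. With each array left out in turn, the list's median lay between 0.90 and 1.23, and between 12 and 15 of its genes were higher by 1 log2 unit.

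**Figure D3:**
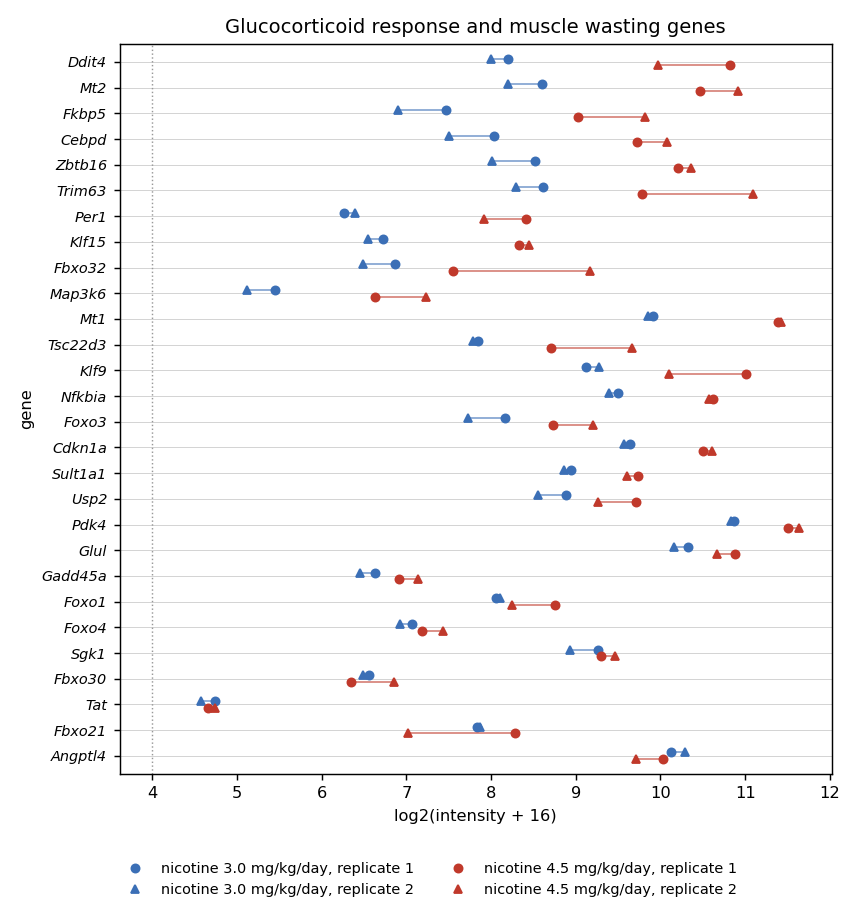
Log2(intensity + 16) in each array for the 28 genes of glucocorticoid response and muscle wasting, sorted by the difference between the doses, with colours and shapes by dose and replicate. Red (4.5) lies to the right of blue (3.0) without overlap in 24 genes, overlaps in Fbxo30, Tat and Fbxo21, and lies to the left in Angptl4.

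Promoter windows of 250 bases before the start site, from RefSeq on GRCm38.p6, were matched for 12 of the 15 genes that were higher by 1 log2 unit, and both strands were searched. The full glucocorticoid response element, AGAACA and TGTTCT with any 3 bases between them, was in 0 of 12 and in 0.0111% of 27025 genes with a window. Its left part alone, AGAACA, was in 2 of 12 and in 18.2% of all genes. The full element in this exact spelling is too rare over all genes for 12 windows to show a difference. The left part was no more frequent in the 12 windows than elsewhere, which says nothing of sites farther away. The metal response core, TGCACNC or TGCGCNC, was in 7 of 12, Mt1 and Mt2 among them, and in 23.8% of all genes. It was also in 4 of 8 cholesterol synthesis genes described below, so it was not particular to this group. The E-box CACGTG, to which the circadian clock's activator CLOCK:BMAL1 is known to bind, was in 2 of those 8, a like share. Among the 12 it was in 3, beside 6.86% of all genes. Those 3 are Per1, Klf15 and Fkbp5, genes that are also known for daily rhythms, and their stretches are shown 5′ to 3′ on the gene's strand with the E-box in capitals. The Per1 stretch is chr11:69098769-69098802 on the plus strand, that of Klf15 chr6:90462334-90462423 on the plus strand, and that of Fkbp5 chr17:28486299-28486332 on the minus strand. Klf15 holds 2 of them.
Per1: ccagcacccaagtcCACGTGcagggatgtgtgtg
Klf15: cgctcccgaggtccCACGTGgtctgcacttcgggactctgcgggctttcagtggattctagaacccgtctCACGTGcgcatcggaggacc
Fkbp5: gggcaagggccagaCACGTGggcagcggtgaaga
A match is a description of the sequence and was not tested against the values.

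The circadian clock list was read beside them. Per1, a repressor of the clock and a direct glucocorticoid target, read 60.8 and 68.4 at nicotine 3.0 and 325 and 227 at 4.5, a difference of 1.84 ± 0.22 (SE, n = 2 against 2; limma, adjusted p = 0.292). Nfil3, a repressor of clock output, read 82.3 and 77.4 against 212 and 240. Of 19 clock genes, 6 were higher in both 4.5 arrays and 1, Dbp, was lower, beside 15.1% and 22.4% of all genes, with a median difference of 0.24. The core activators overlapped: Clock read 152 and 137 at 3.0 and 85.8 and 153 at 4.5, and Arntl, which encodes BMAL1, 177 and 171 against 117 and 225. Of the 19, Per1 and Nfil3 were the genes higher by at least 1 log2 unit, and 12 overlapped between the doses. The hour of collection is not stated in those sources, and its part in these values was not tested.

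Immediate early genes are switched on within minutes of a stimulus or of handling of tissue. Of 33, 16 were higher in both 4.5 arrays and 3 lower, beside 15.1% and 22.4% of all genes, with a median difference of 0.25. Ccn1, a matrix protein of growing connective tissue, read 327 and 348 at nicotine 3.0 and 860 and 729 at 4.5. Atf3, a stress-induced factor, read 84.9 and 94.8 against 202 and 148. Zfp36 read 98.4 and 99.6 against 166 and 169. Some classic members did not go with these. Fos overlapped, with 219 and 277 against 323 and 258, and Egr1, 1 of the 3 lower, read 469 and 560 against 364 and 338. Egr3 was lower as well, at 116 and 123 against 58.6 and 70.2, and Dusp1, itself a glucocorticoid target, at 668 and 671 against 570 and 449.

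Genes of cholesterol synthesis were lower at 4.5. Of 15 measured, 11 lay lower in both 4.5 arrays and 0 higher, beside 22.4% and 15.1% of all genes, and 5 were lower by at least 1 log2 unit. The median difference was -0.83. At an unadjusted p under 0.05 there were 9 lower, beside 4.4% of all genes, and none passed the adjusted test in limma. Hmgcs1, which makes HMG-CoA at the entrance of the pathway, read 1335 and 1513 at nicotine 3.0 and 731 and 474 at 4.5. Idi1, which isomerises the isoprene unit, read 228 and 233 against 99.0 and 59.3, a difference of -1.41 ± 0.24 (SE, n = 2 against 2; limma, adjusted p = 0.487). For both, the 3.0 arrays were close and replicate 2 of 4.5 was the lowest. Sqle, squalene epoxidase and a control point of the pathway, read 247 and 267 against 132 and 84.2.

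The later steps that trim lanosterol were lower too. Msmo1, a methyl oxidase, read 171 and 158 at nicotine 3.0 and 36.1 and 54.0 at 4.5, a difference of -1.58 ± 0.21 (SE, n = 2 against 2; limma, adjusted p = 0.317). Cyp51, the lanosterol demethylase, read 168 and 171 against 93.7 and 69.1. Dhcr7, the last enzyme, read 87.7 and 91.4 against 62.7 and 38.2. Insig1, the sterol sensor that is itself an SREBP target, read 354 and 499 against 305 and 100.5, so that replicate 2 of 4.5 held most of its difference. Members that overlapped were Fdft1, Mvd, Mvk and Srebf2, the last being the gene of the pathway's transcription factor, with 126 and 103 against 119 and 86.9. Fdft1 read 337 and 313 against 900.01 and 277, high in replicate 1 of 4.5. Without replicate 2 of nicotine 4.5 the list's median difference was -0.42 and 2 genes were lower by 1 log2 unit, while 1, Fdft1, was then higher by that much.

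**Figure D4:**
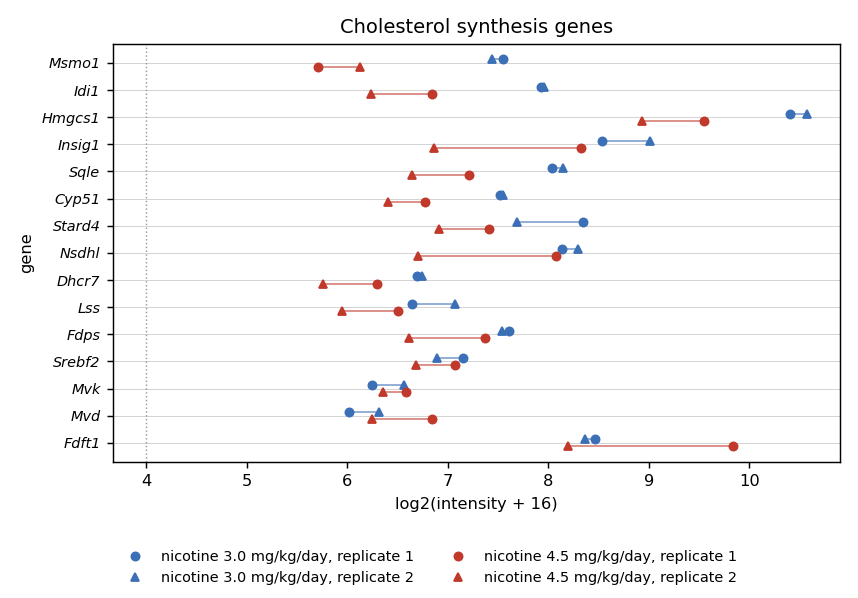
Log2(intensity + 16) in each array for the 15 genes of cholesterol synthesis, sorted by the difference between the doses. The 11 genes from Msmo1 to Fdps have both red 4.5 arrays to the left of both blue 3.0 arrays, and replicate 2 of 4.5 (triangle) is the lowest array in 10 of them.

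The promoter windows of 8 of the 11 lower genes were matched. All 8 held CCAAT, the box bound by the factor NF-Y, which is known to work with SREBP, in 1 or the other direction, beside 37.5% of all genes and 5 of the 12 glucocorticoid genes. A sterol response element spelt TCACNCCAC was in 1 of 8, Hmgcs1, and in 1.22% of all genes. Stretches of 4 genes are shown: Msmo1 and Idi1 because the box recurs in them, Cyp51 for a single box, and Hmgcs1 for the sterol element. Capitals mark CCAAT, or ATTGG on the other strand, and in Hmgcs1 the sterol element. They run 5′ to 3′ on the gene's strand, for Hmgcs1 chr13:119690200-119690236 (plus), Idi1 chr13:8885547-8885605 (plus), Msmo1 chr8:64733615-64733752 (minus) and Cyp51 chr5:4104708-4104740 (minus).
Hmgcs1: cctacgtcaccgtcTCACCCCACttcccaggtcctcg
Idi1: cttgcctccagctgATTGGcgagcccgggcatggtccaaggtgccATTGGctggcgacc
Msmo1: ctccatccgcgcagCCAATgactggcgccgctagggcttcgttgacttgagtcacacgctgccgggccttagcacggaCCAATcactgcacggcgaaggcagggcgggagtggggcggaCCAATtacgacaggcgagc
Cyp51: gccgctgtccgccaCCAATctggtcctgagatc
Msmo1 holds 3 boxes and Idi1 2 in these stretches. The window of Hmgcs1 holds 3 as well, all outside the stretch printed.

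Genes of developing T cells were higher at 4.5 from a level near background. Trbv1, a variable segment of the T cell receptor beta chain, read 6.44 and 10.1 at nicotine 3.0 and 104 and 180 at 4.5, a difference of 2.67 ± 0.27 (SE, n = 2 against 2; limma, adjusted p = 0.292). Its other probe set differed by only 0.13. Rag1, the recombinase that joins receptor segments in immature lymphocytes, read 3.12 and 1.73 against 43.2 and 87.4. Ccr9, a chemokine receptor of thymocytes, read 5.94 and 10.4 against 45.4 and 165, while another of its probe sets differed by 0.51. These 3 genes read close to background in both 3.0 arrays. Of 23 genes of the list, 13 were higher in both 4.5 arrays, beside 15.1% of all genes, and 7 by at least 1 log2 unit. Themis, Cd3e, Cd3g and Cd3d make up the 7, each highest in replicate 2 of 4.5. Cd4 and Ptcra, the pre-T cell receptor chain, lay near background in all 4 arrays, between 1.56 and 8.42, and Dntt, the enzyme that adds bases at the joins, was lower at 4.5.

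The list's median was 4.59 and 4.70 on the log2 scale at nicotine 3.0 and 5.36 and 5.80 at 4.5, and its summed intensity 885 and 849 against 1158 and 1766. Above the 60th percentile of all probe sets were 5 and 5 of its 23 genes at 3.0 and 9 and 15 at 4.5. Prss16, a protease of the thymic epithelium, was higher beside them, at 10.6 and 4.71 against 38.9 and 63.5. Ccl25, the ligand of Ccr9 made by that epithelium, read 9.72 and 11.2 against 14.6 and 39.5. They come from a list of 10 genes of thyroid, parathyroid and thymic stroma, with a median difference of 0.06. In that list 2 were higher, 2 lower and 6 overlapped, near the 15.1% higher and 22.4% lower of all genes. Foxn1, Psmb11 and Aire, the defining genes of thymic epithelium, overlapped near background, between 2.36 and 13.8. Whether tissue outside the palate had a part in this was not tested. Without replicate 2 of 4.5 the median difference was 0.15 in place of 0.44, and 5 genes were higher by 1 log2 unit.

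Lung and airway genes were lower at 4.5, from a high level in replicate 1 of nicotine 3.0. Sftpc, the surfactant protein of alveolar cells, read 5671 and 2109 at 3.0 and 685 and 697 at 4.5, a difference of -2.30 ± 0.44 (SE, n = 2 against 2; limma, adjusted p = 0.566). Scgb1a1, the secretoglobin of airway club cells, read 3253 and 1014 against 302 and 435. Cxcl15, a lung chemokine outside the list, read 1490 and 321 against 85.8 and 78.8. All 3 were highest in replicate 1 of 3.0 and still present in the 4.5 arrays. Ager, of flat alveolar cells, read 1312 in that replicate and between 50.4 and 157 elsewhere. Nkx2-1, the lung's master transcription factor, was near background throughout, between 9.73 and 16.3.

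Of 19 lung genes, 13 were lower in both 4.5 arrays, beside 22.4% of all genes, and 12 by at least 1 log2 unit. The list's median was 9.25 and 7.14 on the log2 scale at nicotine 3.0 and 6.51 and 6.69 at 4.5, and its summed intensity 18087 and 6232 against 2386 and 3664. Above the 60th percentile were 17 and 14 of its genes at 3.0 and 12 and 13 at 4.5. Without replicate 1 of 3.0 the median difference was -0.66 in place of -1.54 and 7 genes were lower by 1 log2 unit. Without replicate 2 of 3.0 it was -2.56. The part of other tissue in these readings was not tested, and the male array is the one with the highest lung reading.

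Fat genes were lower mainly in replicate 2 of nicotine 4.5. Ucp1, the uncoupling protein that makes heat in brown fat, read 4681 and 4906 at 3.0, and 4025 and 79.6 at 4.5. Its difference of -2.95 ± 1.54 (SE, n = 2 against 2; limma, adjusted p = 0.728) thus rested on 1 array. Cidea, a fat droplet protein, had the same shape, at 2262 and 2610 against 2241 and 675. Elovl3, in contrast, was low in both 4.5 arrays, and Prdm16, the brown fat transcription factor, read 96.2 and 85.4 against 51.2 and 38.6. Of 13 brown fat genes, 6 were lower and 1, Ppargc1a, higher in both 4.5 arrays, beside 22.4% and 15.1% of all genes. The median difference was -0.43, and it was 0.04 without replicate 2 of 4.5. Without the male array, replicate 1 of 3.0, it was -0.60. The list's summed intensity was 13157 and 15505 at 3.0 and 13734 and 4342 at 4.5.

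Of 26 adipocyte genes, 8 were lower and 2 higher, not far from the 22.4% and 15.1% of all genes. Plin2, the coat protein of lipid droplets, read 1830 and 1996 at nicotine 3.0 and 1197 and 1131 at 4.5. Retn, the adipocyte hormone resistin, read 566 and 879 against 437 and 98.7. Slc2a4, the insulin-regulated glucose transporter of muscle and fat, was higher, at 554 and 586 against 911 and 839. Of 16 fatty acid oxidation genes, 5 were lower and 1 higher in both 4.5 arrays, beside 22.4% and 15.1% of all genes. Their median difference was -0.54. The list's median was 10.86 and 10.92 on the log2 scale at 3.0 and 10.93 and 9.79 at 4.5, lower in replicate 2 only. Cpt2, 1 of the 5, read 1073 and 1195 against 716 and 479. Elovl3, Plin2, Prdm16 and Cpt2 were thus among the genes lower in both 4.5 arrays than at 3.0, while Ucp1, Cidea and Retn differed mostly through replicate 2.

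The same lists were read in the 4 arrays of the other groups. The glucocorticoid list's median was 7.80 and 7.84 with saline, 7.78 and 9.05 at nicotine 1.5, 8.19 and 8.01 at 3.0, and 9.50 and 9.64 at 4.5. Replicate 2 of nicotine 1.5 thus stood apart from its own replicate. In all 15 of the genes higher by 1 log2 unit it exceeded both 3.0 arrays, and in 7 of them it lay below both 4.5 arrays. The saline arrays and replicate 1 of nicotine 1.5 lay below both 4.5 arrays in 15, 14 and 15 of the 15. Against both 3.0 arrays, the saline arrays were higher in 4 and 4 of the 15 and lower in 6 and 7. Mt1 and Mt2 were among those higher, at 1830 and 2605 and at 1016 and 1481 with saline. The cholesterol list had medians of 8.81 and 8.98 with saline, 7.73 and 7.24 at 1.5, 7.61 and 7.55 at 3.0, and 7.07 and 6.61 at 4.5. It was lowest in the 4.5 arrays. The thymocyte list lay between 4.53 and 4.70 in the 6 arrays outside 4.5. Lung genes were high in replicate 2 of nicotine 1.5 and replicate 1 of 3.0, at 9.01 and 9.25, and read 5.09 and 4.99 with saline. Replicate 1 of nicotine 1.5 read 4.68, and both 3.0 and both 4.5 arrays lay above it and above both saline arrays. The brown fat list was highest in the 3.0 arrays, at 7.96 and 8.51. It read 6.46 and 5.77 with saline and 5.74 and 7.35 at 1.5. Its 3 genes lower by 1 log2 unit at 4.5 lay below both 3.0 arrays in each saline and 1.5 array. Ucp1 read 5.97 and 2.78 with saline and 5.12 and 399 at 1.5. Elovl3 read 19.3 and 7.17 with saline, near its 15.03 and 23.4 at 4.5. Prdm16 was not low with saline, at 90.8 and 146.

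**Figure D5:**
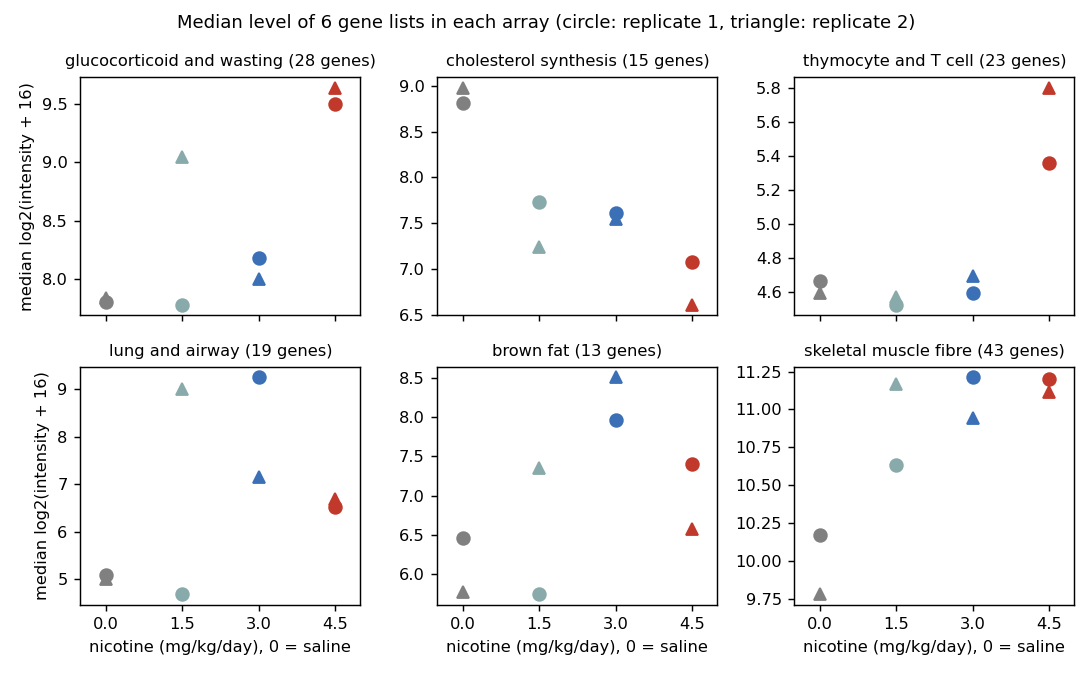
Median log2(intensity + 16) of 6 gene lists (y axis, a separate scale in each panel) in each of the 8 arrays against the nicotine dose (x axis, 0 for saline), circles for replicate 1 and triangles for replicate 2. The glucocorticoid list is at 9.50 and 9.64 at 4.5 mg/kg/day with 1 array of 1.5 mg/kg/day at 9.05. The cholesterol list is lowest at 4.5, and the lung list is highest in 1 array each of 1.5 and 3.0.

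Genes that pattern and fuse the palate differed little. Of 39, 7 were higher and 5 lower in both 4.5 arrays, beside 15.1% and 22.4% of all genes, none by 1 log2 unit, with a median difference of 0.00. Osr2, a zinc finger gene of the palatal shelves, read 44.2 and 61.4 at nicotine 3.0 and 63.1 and 109 at 4.5. Efnb1, an ephrin ligand, was lower, at 358 and 313 against 192 and 207, and Sox9, of cartilage, at 94.6 and 72.1 against 38.5 and 54.2. Foxf2, a forkhead gene of the shelves whose loss gives a cleft in mice, read 40.4 and 17.4 against 5.0 and 11.1, a difference of -0.86 ± 0.28 (SE, n = 2 against 2; limma, adjusted p = 0.661). Msx1, Pax9 and Jag2 overlapped, with differences of -0.02, 0.00 and 0.01. Meox2 was lower by a small step, with a difference of -0.23 ± 0.18.

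Hedgehog and FGF signalling shapes the palate's ridges and the exchange between its epithelium and mesenchyme. Of 23 of its genes, 12 were lower and 0 higher in both 4.5 arrays, beside 22.4% and 15.1% of all genes, and the median difference was -0.19. The ligand Shh read 139 and 70.8 at nicotine 3.0 and 60.5 and 28.3 at 4.5, but its other probe set differed by 0.02. Ptch1, its receptor and target, read 425 and 368 against 316 and 366. On the FGF side the ligand Fgf1 read 149 and 105 against 69.3 and 66.1, and the receptor Fgfr3 126 and 72.5 against 43.6 and 57.1. The feedback inhibitor Dusp6, a phosphatase of ERK, read 282 and 305 against 161 and 209, beside Spry4 above. Spry2 was lower with a difference of -0.31.

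Among WNT genes, 10 of 23 were lower and 1 higher, beside 22.4% and 15.1% of all genes, with a median difference of -0.24. Wnt5a, a ligand of the noncanonical route, read 107 and 95.7 at nicotine 3.0 and 45.2 and 49.6 at 4.5, a difference of -0.89 ± 0.17 (SE, n = 2 against 2; limma, adjusted p = 0.588). The inhibitor Sfrp1 was the higher one, at 144 and 136 against 193 and 245, although its probe sets disagreed in direction. In TGF-beta signalling, 2 of 21 were higher and 5 lower, the latter near the 22.4% of all genes and the former below 15.1%. Tgfb3, the ligand of palate fusion, and its receptor gene Tgfbr2 changed sign when single arrays were left out. In BMP signalling, 2 of 19 were higher and 6 lower, beside 15.1% and 22.4% of all genes. Id1, a target of the pathway, was among the lower, at 257 and 241 against 156 and 165.

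The receptors on which nicotine acts were read last. Of 12 genes of the muscle receptor and its anchoring, 4 were higher and 0 lower in both 4.5 arrays, beside 15.1% and 22.4% of all genes, with a median difference of 0.02. Chrng, the subunit of the fetal receptor, read 73.8 and 65.0 at nicotine 3.0 and 116 and 103 at 4.5. Chrne, the subunit that replaces it after birth, was near background, at 4.68 and 3.74 against 14.0 and 14.6. Chrnb1 read 156 and 145 against 191 and 206, while Chrna1, the ligand-binding subunit, overlapped with a difference of 0.02. Of 16 genes of neuronal receptors and acetylcholine handling, 2 were higher and 5 lower, near those shares. Chrna3, of autonomic ganglia, read 20.5 and 16.1 against 28.9 and 23.8, and Chrna7 overlapped with a difference of -0.08. Chat, the enzyme that makes acetylcholine, read 30.1 and 25.5 against 15.5 and 17.4.

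Most genes of the muscle fibre itself overlapped, with 5 of 43 genes higher and 3 lower, beside 15.1% and 22.4% of all genes, and a median difference of 0.06. Mylk2, the myosin light chain kinase of skeletal muscle, read 61.4 and 53.9 at nicotine 3.0 and 96.2 and 223 at 4.5. Tcap, a cap protein of the sarcomere, read 895 and 702 against 1126 and 2066, so both were highest in replicate 2 of 4.5. Myh1, a fast myosin of mature fibres, was lower, at 2084 and 1477 against 1151 and 1233. The wasting ligases Trim63 and Fbxo32 thus differed while most sarcomere genes overlapped. Myog, the factor of muscle differentiation, read 280 and 258 against 311 and 476. Within the IGF axis, 5 of 18 were higher and 1 lower, beside 15.1% and 22.4% of all genes. Irs2, an insulin receptor substrate of fasting, read 18.1 and 12.5 against 57.4 and 34.8, Igfbp3 502 and 461 against 750 and 1017, and Ghr, the growth hormone receptor, 750 and 790 against 540 and 434.

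Among other lists, 8 of 32 genes of oral and skin epithelium were lower and 2 higher in both 4.5 arrays, a share near the 22.4% of all genes that were lower. Cldn4, a tight junction protein, read 25.5 and 22.2 at nicotine 3.0 and 9.76 and 11.6 at 4.5. Cdh1, the epithelial cadherin, read 460 and 196 against 101 and 195. Within these 2 doses it was highest in the array with the highest lung reading. With saline, where the lung list was low, Cdh1 read 1432 and 1147, and at nicotine 1.5 it read 499 and 468. Of 13 neutrophil genes, 7 were lower and 1 higher, beside 22.4% and 15.1% of all genes, with a median difference of -0.07. The granule gene Ngp read 177 and 206 against 130 and 90.7, while Lcn2, which epithelia also make, overlapped at 191 and 153 against 104 and 1708. The summed intensity of the 13 was 1416 and 1880 against 1058 and 2709. Of 22 interferon response genes, 8 were higher by small steps and 1 lower, beside 15.1% and 22.4% of all genes, with a median difference of 0.13. Of 28 mitochondrial respiration genes, 26 overlapped, 2 were lower and 0 higher, beside 22.4% and 15.1% of all genes. Their median difference was -0.25. The list's median was 11.49 and 11.55 on the log2 scale at 3.0 and 11.69 and 10.89 at 4.5, lower in replicate 2 only.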

How the data were processed

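The values are probe set intensities on a linear scale, made by the authors from Affymetrix arrays and deposited as 1 table of 45101 probe sets. Their summary and scaling are not given in the sources used here. Of these, 34945 probe sets named 1 gene in the platform annotation (18193 genes), 34741 of them matched to RefSeq genes by Entrez ID, and 932 named several, 9160 none and 64 were controls. Values were taken as log2(intensity + 16). This understates the change of dim genes. Array medians on that scale differed by 0.03, under the limit of 0.1 set for quantile normalization, so no further scaling was applied.

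The 2 arrays of nicotine 4.5 were compared with the 2 of 3.0 in limma 3.58.1 under R 4.3.3 (lmFit, and eBayes with a trend), with 2 residual degrees of freedom, two-sided, and Benjamini-Hochberg adjustment over all 34945. Errors are standard errors of that fit. Each gene was read by the probe set of highest mean over the 4 arrays. Named genes are the 15 per direction with the widest gap among those with no overlap, up to 3 per list by the same gap, and 14 given whatever their value, of which 13 were measured; no gene passed the threshold of a further choice. Other members of a list are named after their values were seen. Of 180 genes chosen this way, 8 had probe sets that disagreed in direction (Sfrp1, Myh4, Txnrd1, Fbln1, Mylk, Tbx5, Shh and Jag2). The members and the 55 gene lists were chosen with earlier results of these data known. Lists are described by counts and medians. The fit was tested on simulated data. Alternatives were the scaling, the added constant of 1 or 64, a level filter, 1 probe set per gene, the arrays in the fit, the spread model, the replicate block, and each array left out. Precision is limited by the number of arrays.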

Additional observations from a re-analysis of the deposited data

How the results depend on the processing

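With 2 arrays a dose, single arrays decide much. No probe set passed an adjusted p under 0.05 in limma under the scalings, constants, level filter, spread model, other fits and 1 probe set per gene. The exceptions were the fit without replicate 1 of nicotine 4.5 and a crossed block. Leaving out 1 array gave between 0 and 16 higher and between 0 and 24 lower; the lone array is then assumed to vary like the other dose. With the replicate number as a block there were 0 in each direction, 1895 at an unadjusted p under 0.05 and a smallest adjusted p of 0.225 in limma. The deviations of same-numbered arrays correlated at -0.187, and the crossed pairing, added after the data were seen, gave 13 higher and 6 lower. Over all alternatives the adjusted p of the 30 genes with the widest gaps lay between 0.035 and 1 in limma. Counts past 1 log2 unit without overlap, 119 higher and 185 lower, became 655 and 882 with a constant of 1, 46 and 82 with 64, and 78 and 129 with 1 probe set per gene. Without 1 array they lay between 147 and 334 and between 211 and 456, the highest of each without replicate 1 of 4.5, and 288 lower without replicate 2 of 3.0. Of 2520 values of named genes under alternatives, 12 changed sign, in genes with differences near 0. Without 1 array, Tgfb3 lay between -0.0071 and 0.184, Tgfbr2 between -0.149 and 0.241, Msx1 between -0.160 and 0.117, Jag2 between -0.229 and 0.247, Pax9 between -0.0666 and 0.0738 and Chrna1 between -0.138 and 0.169. Msx1 was also at 0.0052 and 0.006 under quantile normalization over 8 and 4 arrays. The brown fat median lay between -0.967 and 0.0386 without 1 array, and the thymocyte median was 0.761 with a constant of 1 and 0.229 with 64. The cause of these shifts was not tested.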

Other observations

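Several genes of peroxisomes, the organelles that shorten very long fatty acids, were among the 129 lower at nicotine 4.5. They were picked after their values were seen and were on no list. Ehhadh, an enzyme of peroxisomal oxidation, read 524 and 640 at 3.0 and 177 and 240 at 4.5. Abcd3, a peroxisomal membrane transporter, read 1232 and 1507 against 764 and 463, and Ephx2, an epoxide hydrolase found in peroxisomes and cytosol, 976 and 1183 against 640 and 381. Acaa1b, a thiolase, read 157 and 222 against 96.2 and 22.5. Each was lowest in replicate 2 of 4.5 except Ehhadh, which was lowest in replicate 1.

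Further genes chosen after their values were seen had the order of the lung list within the 4 arrays compared. Tcf21, a mesenchymal transcription factor of lung and kidney, read 798 and 169 at 3.0 and 46.3 and 97.1 at 4.5, and Foxa2, of endodermal epithelium, 74.5 and 13.9 against 3.29 and 5.82. Of these 4 arrays, replicate 1 of 3.0 was the highest for both. With saline, where the lung list was low, Tcf21 read 359 and 971 and Foxa2 43.0 and 81.6.

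Some genes were high in 1 array of 4.5 only. Irf4 read 210 in replicate 1 and 20.9 in replicate 2, against 14.0 and 12.8 at 3.0. Lpin1, a phosphatase of fat synthesis induced by fasting, read 1355 and 392.5 against 278 and 311. Serpina3n, an acute phase inhibitor, read 115 in replicate 2 and 15.7 in replicate 1, against 14.9 and 13.6. Among cell cycle genes, the helicase subunit Mcm4 was lower, at 177 and 194 against 91.9 and 93.9, while Ccnb2, of mitosis, was higher, at 92.6 and 109 against 290 and 146.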
